A study of Mus musculus with 7 samples.

Results

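Insulin starts the differentiation of ATDC5 cells, so 46 genes of insulin, insulin-like growth factor (IGF) and phosphoinositide 3-kinase (PI3K) signalling were followed through the peak lists of 5-methylcytosine (5mC) and 5-hydroxymethylcytosine (5hmC). A peak was counted for a gene where the authors had given it that gene's symbol, or where it shared at least 1 bp with the gene body or the 5000 bp upstream of it on the mouse build GRCm38. The 46 members are part of 21951 annotated protein-coding genes. They were chosen by function.

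ATDC5 is a mouse line derived from a teratocarcinoma. Its progenitors form cartilage-like cells in medium with insulin, transferrin and selenite. The 7 DNA samples were all unmodified ATDC5 cells and fell into 5 groups by their labels: day 0 input (1 sample), day 0 5mC (1 sample), day 10 5mC (1 sample), day 5 5hmC (2 samples) and day 10 5hmC (2 samples). DNA with 5mC was pulled down by a protein complex that binds methylated CpG, and DNA with 5hmC through a biotin-tagged sugar that a glucosyltransferase attaches to the base. No sample is labelled as coming from a separate culture. The 2 samples of each 5hmC day were merged into 1 list, so no value has a replicate spread and no test between days or marks could be made. The day 0 5mC list held 326 peaks, the day 10 5mC list 2401, the day 5 5hmC list 2058 and the day 10 5hmC list 4164. Sequencing depth is unknown, and the sample that each list was called against is not named in the file headers. A list may thus hold differences between samples and not every site of a mark, and a gene without a peak may still carry it. The days used are those of the labels. Other days are named in the methods for these profiles, and whether both day 10 lists come from cells of 1 day is not certain.

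When insulin or an IGF binds its receptor, the receptor tyrosine kinase phosphorylates adaptor proteins of the IRS family, which recruit PI3K to the membrane. The lipid made by PI3K brings AKT to the membrane, where it is activated. AKT then relieves the TSC brake on the kinase complex mTORC1, which raises translation, and keeps FOXO transcription factors out of the nucleus. In the growth plate, IGF1 and insulin promote the growth of chondrocytes. 5mC is the methylated form of cytosine, mostly in CpG, and TET enzymes oxidise it to 5hmC, which is often found in the bodies and distal elements of expressed genes.

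The DNA under 8 day 10 5hmC peaks is shown, since these lie at members with peaks in more than 1 list, are at most 300 bp long and cover no untranslated region. Each was read from the RefSeq assembly of GRCm38, plus strand, 5′ to 3′, with both end positions included, and each CpG, the site at which the marks mostly lie, is in capitals. The peaks at Pik3r1, Rps6kb1 and Eif4ebp1 lay inside wider day 5 5hmC peaks. Those at Rptor, Igf1r, Grb10 and Foxo3 had no day 5 5hmC peak over them.
Pik3r1, chr13:101686269-101686385: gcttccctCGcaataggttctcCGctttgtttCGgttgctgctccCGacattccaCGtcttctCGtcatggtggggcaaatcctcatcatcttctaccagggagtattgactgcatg
Rps6kb1, chr11:86517340-86517525: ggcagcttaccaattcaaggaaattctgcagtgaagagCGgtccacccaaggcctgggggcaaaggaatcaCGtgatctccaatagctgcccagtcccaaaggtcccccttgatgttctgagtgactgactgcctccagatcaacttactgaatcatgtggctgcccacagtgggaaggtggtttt
Eif4ebp1, chr8:27266024-27266135: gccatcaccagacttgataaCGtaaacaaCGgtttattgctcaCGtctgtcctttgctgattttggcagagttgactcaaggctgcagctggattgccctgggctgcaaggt
Rptor, chr11:119798910-119799200: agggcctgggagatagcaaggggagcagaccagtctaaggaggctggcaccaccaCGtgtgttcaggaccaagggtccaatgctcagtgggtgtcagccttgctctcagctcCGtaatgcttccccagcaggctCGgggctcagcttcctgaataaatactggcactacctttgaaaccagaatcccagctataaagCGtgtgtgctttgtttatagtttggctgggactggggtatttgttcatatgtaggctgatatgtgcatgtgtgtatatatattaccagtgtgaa
Igf1r, chr7:68148528-68148721: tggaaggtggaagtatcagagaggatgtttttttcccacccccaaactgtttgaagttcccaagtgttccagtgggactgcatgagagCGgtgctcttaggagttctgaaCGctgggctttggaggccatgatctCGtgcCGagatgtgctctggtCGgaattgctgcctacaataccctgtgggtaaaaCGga
Igf1r, chr7:68223377-68223521: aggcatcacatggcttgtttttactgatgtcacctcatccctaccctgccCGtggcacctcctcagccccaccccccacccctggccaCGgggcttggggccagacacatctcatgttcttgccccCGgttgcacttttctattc
Grb10, chr11:11953695-11953801: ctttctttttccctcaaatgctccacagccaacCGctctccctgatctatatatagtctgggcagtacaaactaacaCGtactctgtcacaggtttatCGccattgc
Foxo3, chr10:42251236-42251491: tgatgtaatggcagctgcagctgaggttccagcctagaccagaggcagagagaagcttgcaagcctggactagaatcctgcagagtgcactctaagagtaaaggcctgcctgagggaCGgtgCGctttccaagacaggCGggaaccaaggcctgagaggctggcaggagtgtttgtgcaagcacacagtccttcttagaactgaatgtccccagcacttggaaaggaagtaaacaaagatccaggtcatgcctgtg
The short Pik3r1 peak carried 6 CpG in coding sequence, whereas the longer Rptor peak carried 4. The Eif4ebp1 peak held the string GTAAACA, bound by FOXO factors, and the AP-1 string TGACTCA. The Foxo3 peak held GTAAACA as well. These are matches of letters and not measured binding.

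In the day 0 5mC list, 0 of 46 members had a peak. A count of 0 allows up to 6.52% of members by the limit of 3 counts (7.71% by the Wilson interval), and 0.542% of all protein-coding genes had a peak. In the day 10 5mC list, 6 members (13%, 95% Wilson interval 6.12 to 25.7) had a peak, with 8 peaks in all, against 6.55% of protein-coding genes. In the day 5 5hmC list, 6 members (13%, 6.12 to 25.7) had 7 peaks, against 5.09% of protein-coding genes. The member share was highest in the day 10 5hmC list, where 13 members (28.3%, 17.3 to 42.5) had 18 peaks, against 7.87% of protein-coding genes. That list was also the longest, with 4164 peaks, and had the highest share of protein-coding genes. The 5mC lists were cut at 3-fold and the 5hmC lists at 10-fold enrichment, so shares of different lists are not on 1 scale. The intervals cover counting error over genes only.

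Gene length went along with these shares. The median member spanned 55.9 kb (range 3.97 to 297 kb) and the median protein-coding gene 17.4 kb. Members with any peak had a median length of 87.3 kb, and those without one 49.3 kb. Among the 24 members of at least 50 kb, 0 had a day 0 5mC peak, against 1.72% of protein-coding genes of that length. There, 5 (20.8%, 9.24 to 40.5) had a day 10 5mC peak, against 16%. A day 5 5hmC peak was found at 4 of them (16.7%, 6.68 to 35.9), against 13.8%. A day 10 5hmC peak was found at 8 (33.3%, 18 to 53.3), against 23.2%. Each background share lay inside the interval of the long members. Of the 22 shorter members, 0 had a day 0 5mC peak, against 0.195% of protein-coding genes under 50 kb, and 1 (4.55%, 0.807 to 21.8) a day 10 5mC peak, against 3.77%. A day 5 5hmC peak was found at 2 (9.09%, 2.53 to 27.8), against 2.53%. A day 10 5hmC peak was found at 5 (22.7%, 10.1 to 43.4), against 3.33%, which lay below that interval. These 5 were Igfbp2, Irs2, Rps6kb1, Eif4ebp1 and Socs3. The shorter members were still longer than the genes they were set beside, with medians of 19 and 11.3 kb. Per Mb of gene and upstream sequence, members held 2.34 day 10 5mC peaks against 1.54 at protein-coding genes, 2.05 day 5 5hmC peaks against 1.12, and 5.27 day 10 5hmC peaks against 2.17. Several of these peaks share a gene, so they are not independent. When each list was limited to peaks at least as wide as its median, 7 members in place of 13 had a day 10 5hmC peak.

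**Figure D1:**
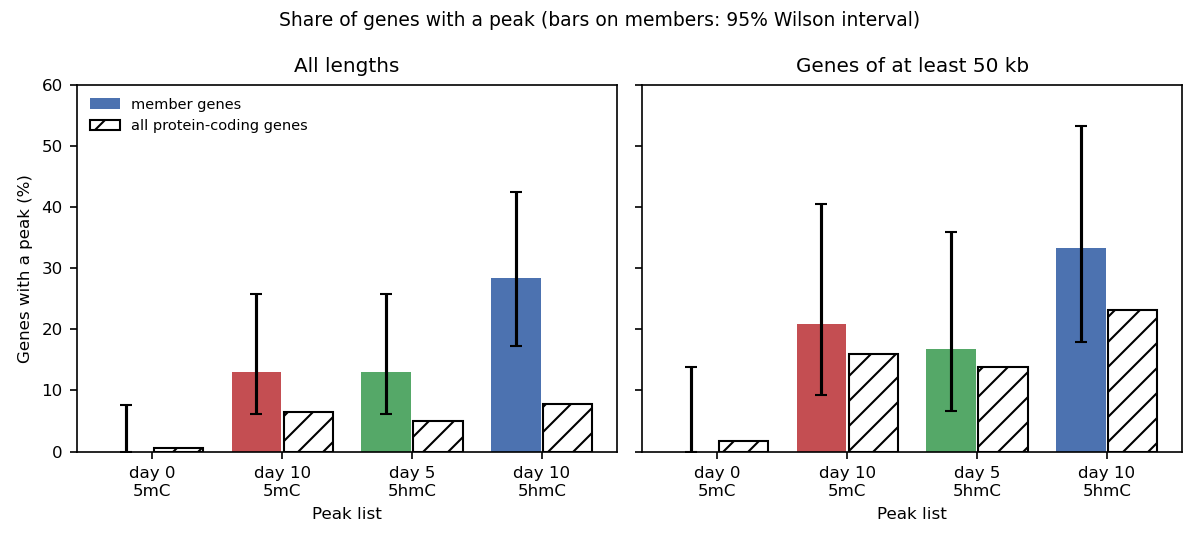
Share of genes with a peak (y axis, percent) in each of the 4 peak lists (x axis), for all lengths (left) and for genes of at least 50 kb (right). Filled bars are member genes with 95% Wilson intervals, and hatched bars are all protein-coding genes; at day 10 5hmC the filled bars reach 28.3% and 33.3%, the hatched bars 7.87% and 23.2%.

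Of the 46 members, 17 had a peak in any list and 14 of these had a 5hmC peak. No peak in any list was found at 29 members and at least 18420 of the 21951 protein-coding genes. Members were longer, with a median of 55.9 kb against 17.4 kb, and this comparison was not split by length. For the 14 members with a 5hmC peak, the share among all genes was not counted. Within their windows, Pik3ca, Pik3cd and Ptpn1 had only 5mC peaks. By role, a peak was found at 4 of 6 PI3K subunits, 2 of 3 receptors, 0 of 2 ligands and 0 of 2 inositol phosphatases. These roles hold 2 to 6 genes of unlike length, so the counts locate peaks and show no difference between roles. Of all 33 peaks, 32 carried the member's symbol in the authors' annotation.

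**Figure D2:**
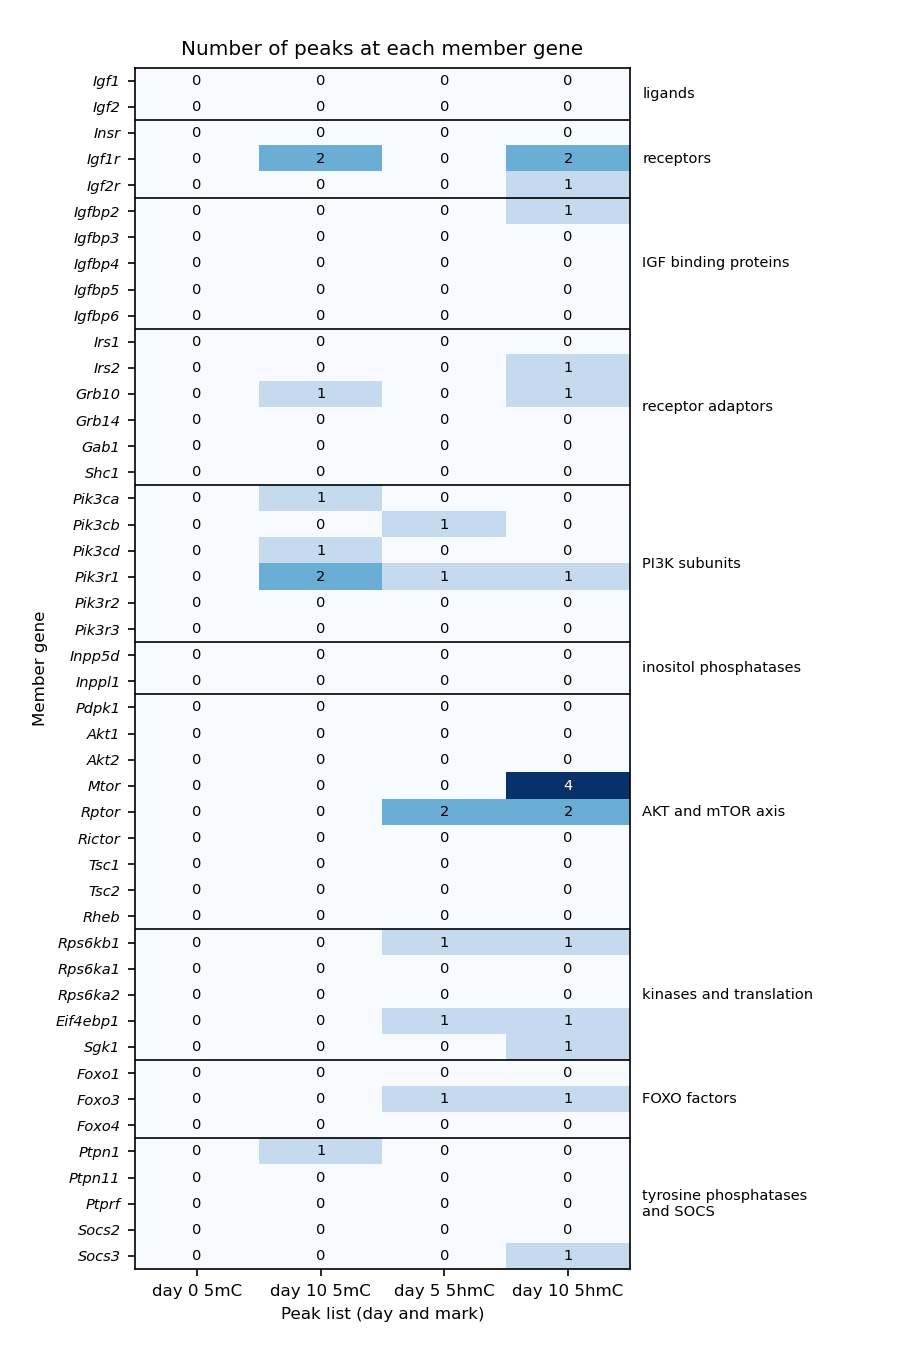
Number of peaks at each of the 46 member genes (rows, ordered by role) in each peak list (columns), with darker cells for more peaks. Mtor has 4 peaks, all in the day 10 5hmC list, Pik3r1 has peaks in 3 lists, and the day 0 5mC column is 0 throughout.

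The ligands Igf1 and Igf2, which activate the IGF1 receptor, had no peak. The nearest peaks to Igf1 were a day 10 5mC peak 41.4 kb past its end, a day 5 5hmC peak at 63.2 kb and a day 10 5hmC peak at 63.6 kb. The last of these, chr10 88000631 to 88000763, lay inside the day 5 peak from 88000279 to 88000882. At Igf2 the nearest 5hmC peaks were over 1 Mb away, at 1270 kb for day 5 and 1070 kb for day 10, and the nearest day 10 5mC peak was at 2650 kb.

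Among receptors, Igf1r, the tyrosine kinase receptor for IGF1, had 4 peaks at day 10, all in the part of the gene farther from its start. Its 5mC peaks at chr7 68183024 to 68183835 (811 bp) and 68195589 to 68196620 (1031 bp) both covered coding exons, at 82.1% and 86.6% of the gene's length. Its 5hmC peaks did not overlap them. The first, at 68148528 to 68148721 (193 bp), lay in intron 2 of 20 and over an exon of a noncoding transcript, with its midpoint 34 bp from a transcript start. The second, at 68223377 to 68223521 (144 bp), lay in intron 20, at 96.4% of the gene. The gaps between the 5mC and the 5hmC peaks ran from 26.8 to 46.9 kb. The nearest day 5 5hmC peak was 17.9 kb upstream of Igf1r, outside the 5000 bp taken as upstream.

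Igf2r, which takes IGF2 up for degradation and is an imprinted gene, had 1 day 10 5hmC peak of 113 bp at chr17 12689040 to 12689153, over a coding exon at 92.3% of the gene. This peak was dense in CpG, with 4.39 per 100 bp against 0.439 in its flanks. Insr, the insulin receptor itself, had no peak in 158 kb of gene. Its nearest were a day 10 5mC peak 75.5 kb upstream, a day 5 5hmC peak at 326 kb and a day 10 5hmC peak at 4640 kb. The 2 receptors with peaks were thus Igf1r and Igf2r, and the day 5 5hmC list held none at a receptor.

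Of the 5 IGF binding proteins, which hold IGFs outside the cell, Igfbp2 had a day 10 5hmC peak of 309 bp at chr1 72839805 to 72840114, in intron 1 of 3, with the AP-1 string in it. Igfbp3, Igfbp4, Igfbp5 and Igfbp6 had no peak. The day 10 5hmC peak nearest to Igfbp5, which neighbours Igfbp2 on chromosome 1, was 11 kb from it.

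Of the 6 receptor adaptors, Irs2 and Grb10 had peaks. IRS2 links the insulin and IGF1 receptors to PI3K. Its day 10 5hmC peak, chr8 11009911 to 11010049 (138 bp), had its midpoint 1522 bp upstream of the gene start. It lay inside the neighbouring gene 9530052E02Rik, and it carried that gene's symbol and not that of Irs2. With 8 CpG (5.76 per 100 bp against 3.6 in its flanks) it had the highest CpG density of the 33 peaks. A day 0 5mC peak lay 10.9 kb upstream of Irs2, outside the window, also under 9530052E02Rik, and a day 5 5hmC peak 23.5 kb past its end. Irs1, the other IRS gene of the list, had its nearest 5hmC peaks at 829 kb (day 5) and 343 kb (day 10).

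Grb10, an imprinted gene for an adaptor that restrains insulin and IGF1 receptor signalling, had a day 10 5mC peak at chr11 11984285 to 11984976 (691 bp, intron 2 of 16) and a day 10 5hmC peak at 11953695 to 11953801 (106 bp, intron 5 of 16). They were 30.5 kb apart. The related Grb14, the docking protein gene Gab1 and the adaptor gene Shc1 had no peak.

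PI3K subunits had peaks of both marks. Pik3ca, the alpha catalytic subunit, had a day 10 5mC peak of 986 bp at chr3 32463767 to 32464753, over an untranslated part of an exon at 94% of the gene. Pik3cd, the delta catalytic subunit best known from leukocytes, had a day 10 5mC peak of 1059 bp at chr4 149701561 to 149702620, which spanned the gene start. It was the only one of the 33 peaks to do so, and its CpG density of 2.17 per 100 bp was near that of its flanks, 1.75. Pik3cb, the beta catalytic subunit, had a day 5 5hmC peak at chr9 99129453 to 99130314 (861 bp, intron 1 of 23) and none at day 10. Repeats made up 48% of that peak, the highest share at a member.

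Pik3r1, which encodes the main regulatory subunit of PI3K, was the only member with peaks in 3 lists. Its day 10 5mC peaks at chr13 101686472 to 101688059 (1587 bp) and 101701903 to 101703508 (1605 bp) were the widest at any member, and both covered coding exons. Its day 5 5hmC peak, 101685768 to 101686650 (882 bp), shared 178 bp with the first of them. Its day 10 5hmC peak, 101686269 to 101686385 (116 bp), lay inside the day 5 peak and 87 bp from the 5mC peak. Both 5hmC peaks covered coding sequence too, at 93.6% and 93.4% of the gene. The CpG density was 2.38 per 100 bp in the day 5 peak against 1.13 in its flanks, and 5.13 in the day 10 peak against 1.71. The regulatory subunit genes Pik3r2 and Pik3r3 had no peak. Neither had Inpp5d and Inppl1, whose products remove a phosphate from the lipid that PI3K makes. A day 10 5mC peak lay 2.06 kb past the end of Inppl1 and was not counted.

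On the AKT and mTOR axis, both genes with peaks encode parts of mTORC1. Mtor, the kinase, had 4 day 10 5hmC peaks and no other, in introns 26, 28, 29 and 31 of 57. They lay on chromosome 4 at 148490494 to 148490685 (191 bp), 148509896 to 148510034 (138 bp), 148512997 to 148513240 (243 bp) and 148523422 to 148523640 (218 bp), or 42, 61.4, 64.5 and 74.9 kb from the gene start. The nearest annotated transcript start to any of them was 20882 bp away. The second held 1 CpG, the fewest of any member peak, and the last held 6.

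Rptor, whose product Raptor presents substrates to mTOR, was the longest member at 297 kb. Its day 5 5hmC peaks lay at chr11 119792695 to 119793772 (1077 bp, intron 7 of 33) and 119863240 to 119863972 (732 bp, intron 20). Its day 10 5hmC peaks lay at 119792881 to 119793219 (338 bp), inside the first day 5 peak, and at 119798910 to 119799200 (290 bp, intron 8), 282 bp from a transcript start. The peak in intron 20 was thus in the day 5 list alone and the one in intron 8 in the day 10 list alone. Pdpk1, Akt1 and Akt2, the kinases that link PI3K to mTORC1, had no peak. Nor had Rictor, which defines mTORC2, the brake genes Tsc1 and Tsc2, or Rheb, the GTPase that switches mTORC1 on.

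Of the kinases and translation genes, both direct targets of mTORC1 had 5hmC peaks at days 5 and 10. At Rps6kb1, which encodes the S6 kinase, the day 5 peak ran from 86517059 to 86517737 on chromosome 11 (678 bp). The day 10 peak ran from 86517340 to 86517525 (185 bp), and the midpoints were 34 bp apart. Both peaks covered a coding exon of an annotated transcript. In the transcript with the longest coding sequence, the day 10 peak lay in intron 6 of 14. Both peaks were poor in CpG, with 4 and 2 in all. At Eif4ebp1, the repressor of the cap-binding protein eIF4E, the day 5 peak ran from 27265269 to 27266607 on chromosome 8 (1338 bp) and the day 10 peak from 27266024 to 27266135 (111 bp). Both lay in intron 1 of 2 and over an exon of a noncoding transcript. Eif4ebp1 spans 16.3 kb and is shorter than the median member. Sgk1, a kinase related to AKT, had a day 10 5hmC peak of 129 bp at chr10 21964396 to 21964525, in intron 2 of 13. Rps6ka1 and Rps6ka2, kinases of the MAPK branch, had no peak.

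Of the FOXO factors, which AKT inhibits, Foxo3 had 2 5hmC peaks in intron 2 of 3, at different places on the 2 days. The day 5 peak lay at chr10 42211409 to 42212137 (728 bp) and the day 10 peak at 42251236 to 42251491 (255 bp), 39.1 kb apart. A day 10 5mC peak lay 1.83 kb past the end of the gene and was not counted. Foxo1 had no peak within its window, but the nearest day 5 and day 10 5hmC peaks both lay 123 kb upstream and overlapped each other, the day 10 peak (chr3 52145090 to 52145276) inside the day 5 peak (52144766 to 52145716). Foxo4, on the X chromosome, had its nearest 5hmC peaks at 4820 kb (day 5) and 701 kb (day 10).

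Of the 5 tyrosine phosphatase and SOCS genes, Ptpn1 and Socs3 had a peak, upstream of the gene in each. Ptpn1, the tyrosine phosphatase that inactivates the insulin receptor, had a day 10 5mC peak of 1074 bp at chr2 167928228 to 167929302, 3292 bp upstream. It was the only 5mC peak at a member with fewer CpG than its flanks (1.21 against 4.56 per 100 bp). The flank on the side of the gene ran over the gene start at 167932057. A day 5 5hmC peak lay 4.76 kb past the end of Ptpn1 and was not counted. Socs3, a cytokine-induced suppressor, had a day 10 5hmC peak of 166 bp at chr11 117974330 to 117974496, 4366 bp upstream. Ptpn11, Ptprf and Socs2 had no peak.

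**Figure D3:**
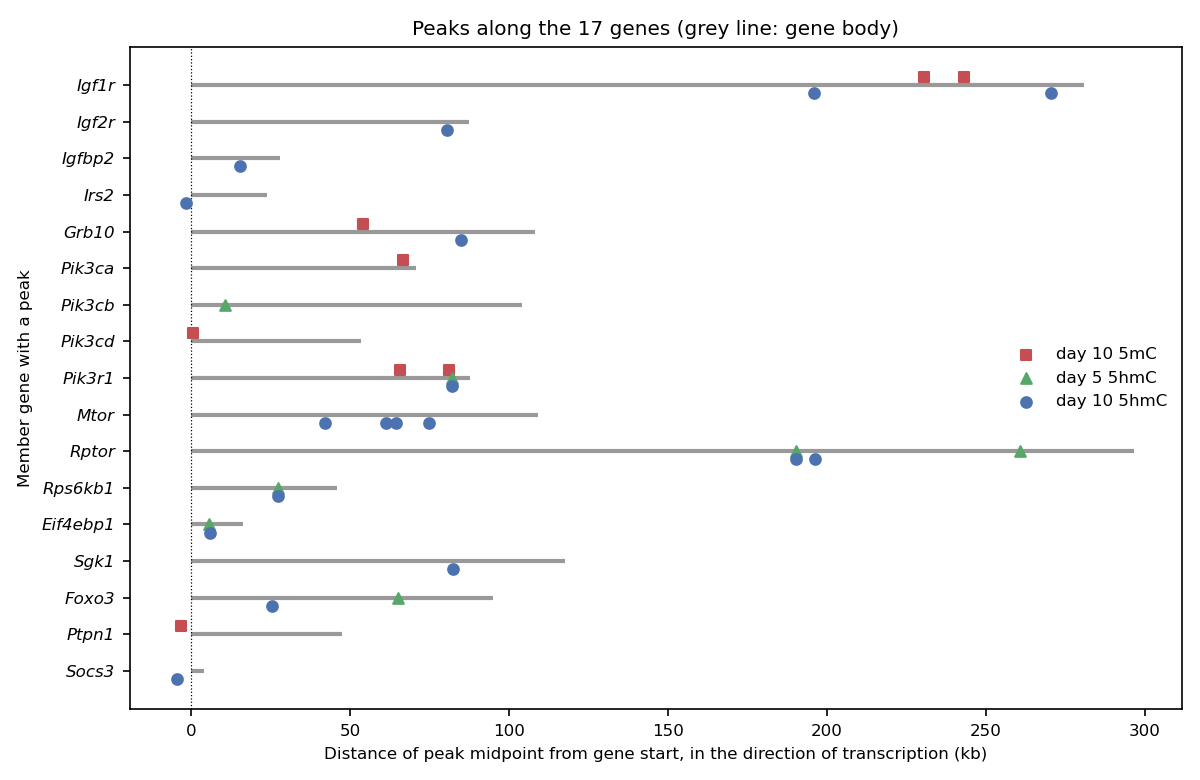
Peaks of the 17 members with any peak, as distance of the peak midpoint from the gene start in the direction of transcription (x axis, kb), with each gene body as a grey line. Squares are day 10 5mC, triangles day 5 5hmC and circles day 10 5hmC; the Igf1r peaks all lie at 196 kb or farther, and the 4 Mtor circles lie between 42 and 74.9 kb.

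The 5hmC lists of the 2 days shared 5 members, Pik3r1, Rptor, Rps6kb1, Eif4ebp1 and Foxo3. They were 83.3% of the 6 members in the day 5 list and 38.5% of the 13 in the day 10 list. Among protein-coding genes, 48.7% of those with a day 5 peak also had one at day 10, and 31.6% the other way round. These backgrounds were not split by length, and the median member was longer (55.9 against 17.4 kb). Pik3cb was in the day 5 list alone. The 8 members in the day 10 list alone were Igf1r, Igf2r, Igfbp2, Irs2, Grb10, Mtor, Sgk1 and Socs3. Since the lists may share the sample they were called against, their overlap is given without a test. With only peaks at least as wide as the median of their list, 1 gene was shared.

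At 4 of the 5 shared genes the peaks themselves overlapped, and each time the day 10 peak lay wholly inside the day 5 one. They were 57.1% of the 7 day 5 peaks and 22.2% of the 18 day 10 peaks at members. Over all protein-coding genes, 29.4% of day 5 peaks overlapped a day 10 peak and 17.6% of day 10 peaks a day 5 peak. The midpoints were 34 bp apart at Rps6kb1, 118 at Pik3r1, 141 at Eif4ebp1 and 183 at Rptor. Member peaks had a median width of 861 bp at day 5 and 175.5 bp at day 10, close to the 830 and 147 bp of all peaks at protein-coding genes, so nesting of this kind goes along with the widths of the lists.

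**Figure D4:**
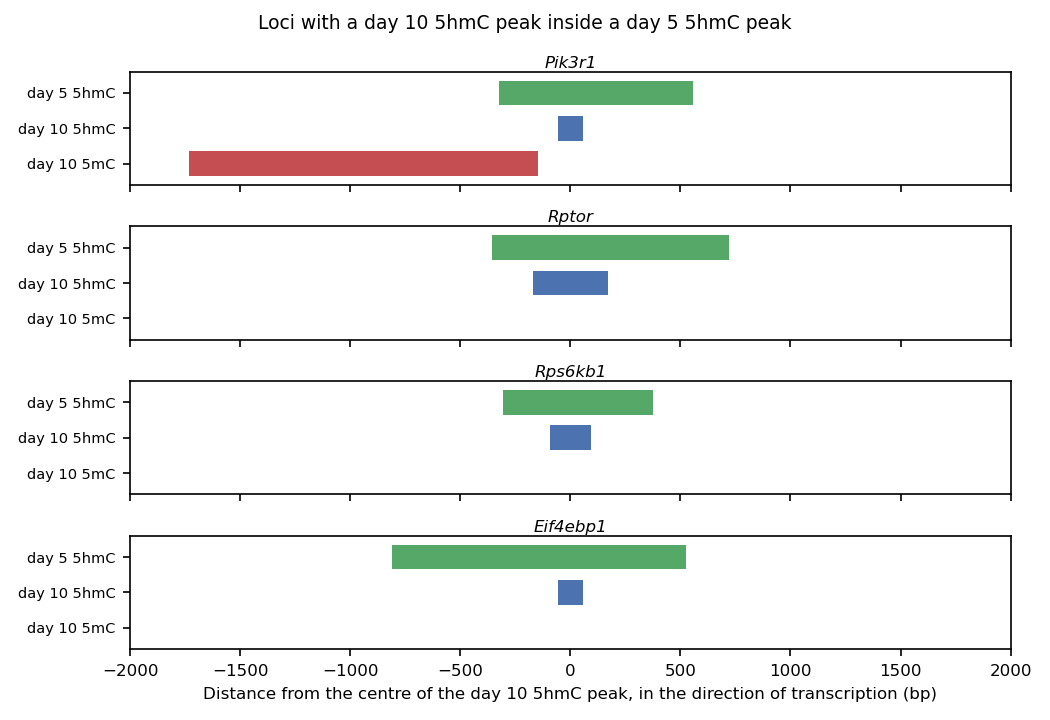
The 4 members with a day 10 5hmC peak inside a day 5 5hmC peak, drawn as distance from the centre of the day 10 peak in the direction of transcription (x axis, bp). Bars are peaks of the list named at the left; at Pik3r1 a day 10 5mC peak shares 178 bp with the day 5 5hmC peak and ends 87 bp from the day 10 one.

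5mC and 5hmC peaks labelled day 10 met at 3 members, Igf1r, Grb10 and Pik3r1. These were 23.1% of the 13 members with day 10 5hmC, against 22.6% among protein-coding genes, and 50% of the 6 members with day 10 5mC, against 27.2%. The peaks of the 2 marks lay next to each other at Pik3r1 and 26.8 kb or more apart at the others.

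The parts of the genes under the peaks were set beside those of all protein-coding genes. Of the 8 day 10 5mC peaks at members, 4 covered a coding exon, 2 an untranslated exon, 1 an intron and 1 upstream sequence. Coding exons took 50.5% of all such peaks at protein-coding genes. Of the 7 day 5 5hmC peaks, 4 lay in introns and 2 over coding exons, against 65.6% and 21.5%. Of the 18 day 10 5hmC peaks, 11 lay in introns and 3 over coding exons, against 80.6% and 7.12%. Member peaks lay past the midpoint of their gene in 5 of 8, 5 of 7 and 13 of 18 cases in these lists. Among pairs of a peak and a protein-coding gene, the shares were 53.3%, 44% and 44%. Peaks that share a gene, such as the day 10 5hmC peaks of Mtor, Igf1r and Rptor, are not independent.

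CpG was denser in most member peaks than in flanks of equal width that started 2000 bp from the peak. In the day 10 5mC list the median was 2.25 per 100 bp in peaks and 1.38 in flanks, with 7 of 8 peaks above their flanks. In the day 5 5hmC list it was 1.51 and 1.11, with 4 of 7 above. In the day 10 5hmC list it was 2 and 1.04, with 17 of 18 above, the exception being the Igf1r peak in intron 20. In a window of 200 bp around the peak midpoint, the median difference from the flanks was 2 in place of 1.07 per 100 bp in the 5mC list, 0.25 in place of 0.448 at day 5 and 0.75 in place of 1.2 at day 10. Among all peaks at protein-coding genes, 90.6%, 77.3% and 68.9% were above their flanks in the same lists. Every member peak held at least 1 CpG. Among all peaks at protein-coding genes, only 0.0604%, 0.0812% and 6.24% held none in the same lists. The member peaks held 13 to 40 CpG in the 5mC list, 4 to 25 in the day 5 and 1 to 10 in the day 10 5hmC list.

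**Figure D5:**
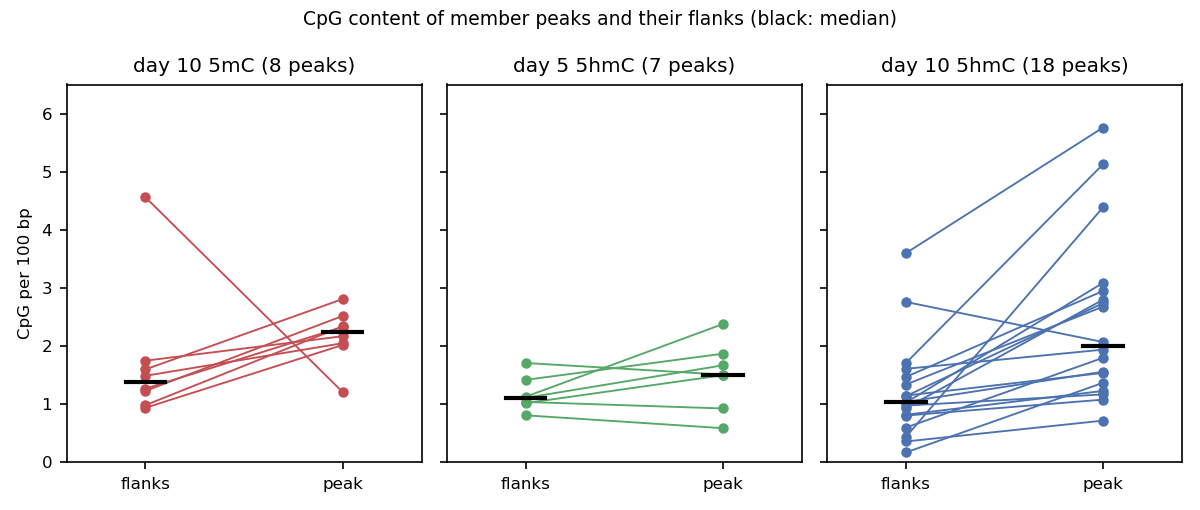
CpG per 100 bp (y axis) in the flanks and in the peak for each member peak of 3 lists, joined by a line, with the median as a black bar. In the day 10 5hmC panel 17 of 18 lines go up from flanks to peak, and in the 5mC panel the one line that falls steeply is Ptpn1.

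Strings bound by 4 families of factors were searched on both strands: TGACTCA for AP-1, AACCACA for RUNX, GTAAACA for FOXO and TGCCAAG for NF1. The AP-1 string was in 3 of the 7 day 5 5hmC peaks, those of Pik3r1, Eif4ebp1 and the first of Rptor, against 43.5% of such peaks at protein-coding genes. It was in 3 of the 18 day 10 5hmC peaks, of Igfbp2, Rptor and Eif4ebp1, against 8.13%, and in 0 of 8 day 10 5mC peaks, against 13.8%. The RUNX string was in 3 of 7, 2 of 18 and 1 of 8 peaks of these lists, against 25.2%, 7.88% and 21%. The FOXO string was in 1 of 7, 2 of 18 and 1 of 8, against 9.18%, 2.06% and 15.3%, and the day 10 5hmC peaks with it were those of Eif4ebp1 and Foxo3. The NF1 string was in 1 of 7, 0 of 18 and 3 of 8, against 23.1%, 7.63% and 17.3%. With so few member peaks these counts describe single loci.

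A further list of 82 genes of the pathway, with a median length of 47.7 kb, was read in the same way. Of these, 1 (1.22%) had a day 0 5mC peak, against 0.542% of protein-coding genes, and 5 (6.1%) a day 10 5mC peak, against 6.55%. There were 11 (13.4%) with a day 5 5hmC peak, against 5.09%, and 13 (15.9%) with a day 10 5hmC peak, against 7.87%. These backgrounds cover genes of all lengths, with a median of 17.4 kb. Among protein-coding genes of at least 50 kb the 2 shares were 13.8% and 23.2%, and among shorter ones 2.53% and 3.33%. The further list was not split by length, so its shares cannot be read apart from it. The day 0 5mC peak was at Socs7. The day 10 5mC peaks were at the RNA-binding protein gene Igf2bp3, the RAS activator Sos1, the PI3K relatives Pik3c2g and Pik3r4, and the lipid phosphatase Inpp4a. Genes in the day 5 5hmC list included the lipid phosphatase Inpp4b and the AKT phosphatases Phlpp1 and Phlpp2. Phlpp2 was counted by the authors' symbol, with the peak past the gene. Protein-coding genes were counted by position alone, a rule under which Phlpp2 would not count. Further day 5 genes were Igf2bp1 with 2 peaks, the adaptors Grb2 and Shc2, the PI3K regulator Pik3r5, the mTORC2 partner Prr5l, the TSC partner Tbc1d7 and Tbc1d1, a regulator of glucose transporter traffic. In the day 10 5hmC list, Htra1, a secreted protease, and the adaptor Shc3 had 2 peaks each. Pappa2, which cleaves IGF binding proteins, Igf2bp3, Shc2, Pik3c2b, Inpp4b, Phlpp1, the mTORC2 subunit Mapkap1, the mTOR inhibitor Deptor, the AMPK subunit Prkaa2 and Socs7 had 1 each. The 5hmC lists shared Shc2, Inpp4b and Phlpp1. These were 27.3% of the 11 genes in the day 5 list, against 48.7% of protein-coding genes and 83.3% of members, and 23.1% of the 13 in the day 10 list, against 31.6%. The Shc2 peaks of the 2 days overlapped.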

How the data were processed

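5mC- and 5hmC-enriched DNA of 6 samples of ATDC5 cells was represented by 4 deposited peak lists. The input sample was not analysed here. Reads were trimmed by the authors with cutadapt, aligned to GRCm38 with BWA and filtered on mapping quality, and MACS 1.4.2 was used to call peaks. Enrichment was at least 3-fold in the 5mC lists and at least 10-fold in the merged 5hmC lists per the file headers. A deposited row holds a chromosome, start and end, some with a gene symbol, and no fold, score or read count. The lists were used as deposited except for empty rows (27818 in the day 5 and 25449 in the day 10 5hmC list). Whether starts count from 0 or 1 is not stated; widths are end minus start.

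Genes came from GENCODE mouse release 21, and a place is that in any annotated transcript, introns being numbered in the transcript with the longest coding sequence. Sequences were read with pysam 0.24.0 under Python 3.11.15. Strings were matched exactly on both strands. The assignment of peaks was tested on simulated peaks. Shares of all protein-coding genes were counted by position alone, which gave the same counts as the main rule for members. Every member is accounted for, and the nearest peak is given for the ligands, receptors, Irs1, Irs2 and FOXO genes; other nearest peaks were chosen after their values were seen. The members and lists were chosen with earlier results of these data known. Some genes of the further pathway list are counted but not reported here by name. Alternatives covered the upstream length, symbol or position alone, midpoints, merging, width, gene length, windows and flanks.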

Additional observations from a re-analysis of the deposited data

How the results depend on the processing

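Of 82 alternative values, 70 stayed close to those reported, 12 moved and 0 turned in direction. Counts and shares have no direction to turn, so this applies to the CpG differences only. The 70 include the day 0 5mC counts, which were 0 under every setting. They also include falls from 6 to 4 members with a peak in the day 10 5mC and day 5 5hmC lists, when only wider peaks were kept. Keeping peaks at least as wide as the median of their list left 5 of the 8 5mC peaks labelled day 10, 4 of the 7 day 5 5hmC peaks and 10 of 18 from day 10, 7 of 13 members with a day 10 5hmC peak, and 1 of 5 shared by both 5hmC days. Among genes of at least 50000 bp, 1.72%, 16%, 13.8% and 23.2% had a peak in the day 0 5mC, day 10 5mC, day 5 5hmC and day 10 5hmC lists. In a window of 200 bp the median CpG difference between peak and flanks became 2 (from 1.07), 0.25 (from 0.448) and 0.75 (from 1.2) per 100 bp in the day 10 5mC, day 5 5hmC and day 10 5hmC lists. Upstream lengths, assignment rules and merging of peaks within 1000 bp moved no count by over 1.5 times. For the upstream lengths this was largely fixed in advance. Peaks with a member's symbol were kept at any length, and 32 of the 33 peaks carried it. No paired analysis was possible because the numbered 5hmC samples of a day share 1 merged list. For the same reason no sample could be left out, and without a value per peak no stricter enrichment could be applied. Depth, which sets how many peaks are called, is unknown.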

Other observations

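Outside the gene windows, the nearest day 5 and day 10 5hmC peaks were compared for the 29 members with no peak in any list, a question chosen after the positions at Igf1 were seen. The nearest peaks of the 2 days overlapped at 4 of them, Igf1, Pik3r3, Rheb and Foxo1, between 17.9 and 123 kb from the gene. This was 13.8% of the 29, and 10.5% of the 18420 protein-coding genes with no peak in any list, so the count is near that of other genes. The pair next to Rheb, the activator of mTORC1, lay upstream at chr5 24860490 to 24861172 (day 5) and 24860618 to 24860734 (day 10). The pair next to Pik3r3, a regulatory subunit of PI3K, lay upstream at chr4 116176482 to 116177640 and 116176798 to 116176905. Which gene, if any, these regions belong to was not tested.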
